A study of Mus musculus with 36 samples.

Results

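The ventricles of mouse hearts at embryonic day 18.5 (E18.5), shortly before birth, were compared with those at E16.5. Of the 45101 probe sets on an array, 27256 were bright enough to be tested. The members were the 3 ventricular arrays titled E18.5 and the 3 titled E16.5, which made 6 of the 36 arrays of the series. Both groups were total RNA of both ventricles together, from C57BL/6 embryos of timed matings, and no treatment or allele is named for any of them. The description field of the E16.5 arrays reads day 15.5, and the title's day was used. The labels do not say whether arrays of a group came from separate animals, so the spread behind the p-values may be technical. That spread within groups was pooled over all 36 arrays, not taken from these 6 alone. Atria of the same days, 3 arrays each, served for comparison. The values are deposited probe set intensities on a linear scale, and a probe set is a group of short DNA probes that read 1 transcript or a few related ones.

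In the last days before birth the ventricular wall is already divided, beats against a rising load and lives on placental glucose and lactate. Around birth cardiac muscle is known to shift towards fatty acid oxidation, to exchange fetal for adult contractile proteins and to leave the cell cycle, while circulating glucocorticoid and thyroid hormone rise. Blood in the chambers passes from primitive red cells, which carry embryonic globins, to red cells of the fetal liver, which carry adult globins. Interferons are cytokines that act through cell surface receptors on a set of antiviral and antigen-presentation genes, many of which also have a level without infection.

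The arrays were alike in scale, with 2% trimmed means of about 500 and medians of 143.8 to 194.6. Correlations of log2 values over the 27256 tested probe sets were 0.97 to 0.976 within E18.5, 0.97 to 0.977 within E16.5 and 0.958 to 0.977 between the days. Ventricular identity was checked with Irx4, a ventricle-restricted transcription factor, which averaged 1743 ± 114 in E18.5 ventricles and 1788 ± 31.6 in E16.5 ventricles (SD, n = 3 each), against 187.6 in E18.5 atria and 129.5 in E16.5 atria. Other tissue was seen on single arrays. Alb, the liver gene of albumin, read 130, 282 and 1067 on the 3 E18.5 arrays, against 216, 4237 and 366 on the 3 E16.5 arrays. Sln, the atrial gene of sarcolipin, read 1789, 72.3 and 15.5 at E18.5, against 11.1, 254 and 17.7 at E16.5. Array 3 of E16.5 lay nearest to E18.5, with a correlation of 0.977 with the first E18.5 array, as high as its correlation of 0.977 with the second E16.5 array.

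A small set of genes differed between the days. Several genes known to respond to interferon, with Ifitm3 and Usp18 foremost, were 2-fold or more higher in E18.5 ventricles, together with the hormone-responsive genes Socs2 and Klf9. The embryonic globins Hbb-y and Hba-x, the basement membrane collagen gene Col18a1, the proteoglycan gene Gpc3 and the guidance ligand gene Slit2 were lower at E18.5. No gene of the cell cycle lists was called, and those of the sarcomere and fatty acid oxidation lists that were called, Myh6, Ldb3 and Lpl, were called on a dimmer probe set only. A probe set was called where limma gave an adjusted p below 0.05 over the 27256 probe sets tested. In all, 59 probe sets were called, 25 higher and 34 lower at E18.5, which is 0.216% of those tested, while 2858 had an unadjusted p below 0.05. The 3 E18.5 arrays did not overlap the 3 E16.5 arrays in any of the 59, which were chosen for their difference between these same arrays. Over all 12983 genes, by their brightest probe set, 8.97% were higher without overlap and 10.2% lower. After quantile normalization the split was 36 higher and 31 lower, and after median centring 26 higher and 11 lower. By genes, each represented by its brightest probe set, 16 of 12983 were higher (0.123%) and 14 lower (0.108%). The counts and medians of gene lists given from here on take each gene by its brightest probe set, and members called on a dimmer one are named beside them. On that basis the unadjusted p was below 0.05 with a higher level in 4.76% of all genes and with a lower level in 6.01%.

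Single arrays decided much of that count. Leaving out E18.5 array 1, 2 or 3 left 54, 18 or 38 called probe sets, and leaving out E16.5 array 1, 2 or 3 left 19, 11 or 98. Calls that held in all 6 of these fits were the 3 probe sets of Hbb-y and those of Ifitm3, Usp18, Col18a1 and a probe set annotated to several genes, which makes 7 of 59. Lgals3bp, Phgdh and Plcb3 held in 5 of 6, while 38 probe sets held in fewer than 3. Averaged over the 25 higher probe sets, the log2 level was 0.46, 0.63 and 0.48 on the E18.5 arrays, against -0.63, -0.63 and -0.30 on the E16.5 arrays, relative to the mean of the 6. E16.5 array 3 was the E16.5 array nearest to the E18.5 mean in 46 of the 59 probe sets.

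**Figure D1:**
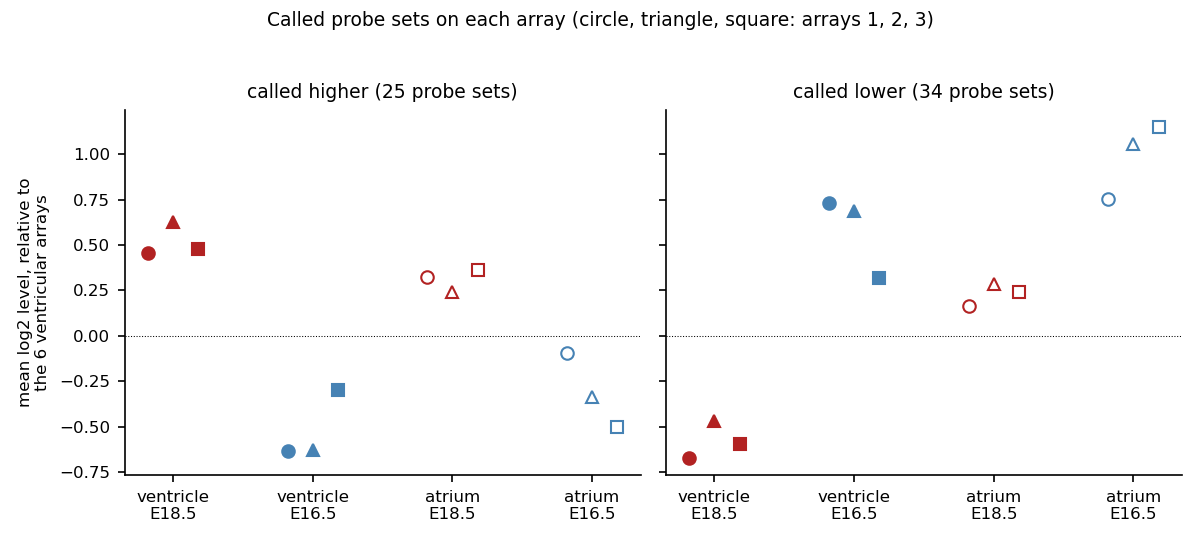
Mean log2 level of the called probe sets on each array, relative to the mean of the 6 ventricular arrays, for the 25 called higher (left) and the 34 called lower (right), with ventricles as filled and atria as open symbols. Array 3 of the E16.5 ventricles (square) lies at -0.30 on the left and 0.32 on the right, nearer to E18.5 than the other E16.5 arrays.

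Ifitm3 encodes a membrane protein that hinders the entry of enveloped viruses. Its intensity was 5507, 6700 and 5236 in E18.5 ventricles, against 2192, 2290 and 2934 in E16.5 ventricles. All 3 E18.5 arrays lay well above the highest E16.5 array. The difference was 2.35-fold (log2 1.23 ± 0.16 SE, adjusted p = 0.000102), and no setting tried ended the call. Usp18, which removes the ubiquitin-like ISG15 from proteins and damps the interferon receptor, read 378, 452 and 542 at E18.5, against 192, 153 and 188 at E16.5. The groups lay far apart, and Usp18 was 2.42-fold higher (1.28 ± 0.20, adjusted p = 0.00213). Ifi27l2a, a small interferon-inducible protein gene, had the largest difference among the higher genes. It read 515, 478 and 522 at E18.5, against 134, 141 and 177 at E16.5, a 3.13-fold difference (1.65 ± 0.31, adjusted p = 0.0145) that was called in 3 of the 6 fits with an array left out.

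Further genes of this kind were called. Oasl2, of the oligoadenylate synthetase-like proteins, averaged 510.0 ± 99.4 in E18.5 ventricles and 187.8 ± 42.5 in E16.5 ventricles (1.37 ± 0.28, adjusted p = 0.0263). Gbp3, a guanylate-binding GTPase, averaged 399.1 ± 34.2 at E18.5 and 172.7 ± 34.1 at E16.5 (1.15 ± 0.24). Lgals3bp, a secreted glycoprotein that binds galectin-3, averaged 1068 ± 146 at E18.5 and 478.6 ± 24.7 at E16.5 (1.12 ± 0.19, adjusted p = 0.00591). Phf11d, a PHD finger protein gene, was higher by 1.06 ± 0.23. Mndal, of the interferon-inducible Ifi200 family, was called on the dimmer of its probe sets (1.55 ± 0.31), and the difference of the other was 1.11. H2-K1, a class I antigen-presenting heavy chain, was called on 1 of 4 probe sets (0.84 ± 0.18), the 4 lying between 0.14 and 0.84. Oasl2, Mndal and Phf11d held in at most 2 of the 6 fits with an array left out, Gbp3 in 1 and H2-K1 in 0.

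Of the 20 measured genes of a list of immune and interferon genes, Ifitm3 alone was called on its brightest probe set, and H2-K1 on a dimmer one. In 11 of the 20 all E18.5 arrays lay above all E16.5 arrays, while this held for 8.97% of all genes (1164 of 12983). In 10 of the 20 the unadjusted p was below 0.05, each with a positive difference. The median difference of the list was 0.48, beside -0.02 for all genes. Members that missed the threshold included Ifit3 (1.50 ± 0.55), the immunoproteasome subunit Psmb8 (1.23 ± 0.40), the peptide transporter Tap1 (1.15 ± 0.44), Ifit1 (1.10 ± 0.27, adjusted p = 0.0799), the interferon regulatory factor Irf7 (1.07 ± 0.37) and Ly6e (0.78 ± 0.19, adjusted p = 0.0697). The class II genes H2-Ab1 (-0.52 ± 0.39) and H2-Aa (-0.47 ± 0.32) had negative differences with overlapping groups. The mean log2 level of the list was 0.50, 0.67 and 0.66 on the E18.5 arrays, against 0.08, 0.14 and 0.20 on the E16.5 arrays, relative to all 36 arrays. Of 15 leukocyte and mast cell genes 3 (20.0%) had a positive difference, beside 46.3% of all genes, and 12 a negative one, with a median of -0.25. Ptprc, the pan-leukocyte gene of CD45, read 212, 195 and 221 at E18.5, against 335, 248 and 303 at E16.5 (adjusted p = 0.369). The macrophage list of 16 genes had a median of -0.04, and 7 of them (43.8%) had a positive difference, near the share of all genes. In 3 of the 16 the E18.5 arrays lay above all E16.5 arrays, and in 1 below. The largest positive differences of these lists were those of the mast cell tryptase gene Tpsb2 (1.62 ± 0.50, adjusted p = 0.196) and of Lyve1 (0.89 ± 0.26, adjusted p = 0.164). Lyve1 is a hyaluronan receptor of lymphatic vessels and tissue macrophages. Genes of endothelium and endocardium moved the same way as the interferon genes, with 11 of 24 above all E16.5 arrays, 19 of 24 positive, a median of 0.21 and none called. The part of any of these cells in the interferon genes was not tested.

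**Figure D2:**
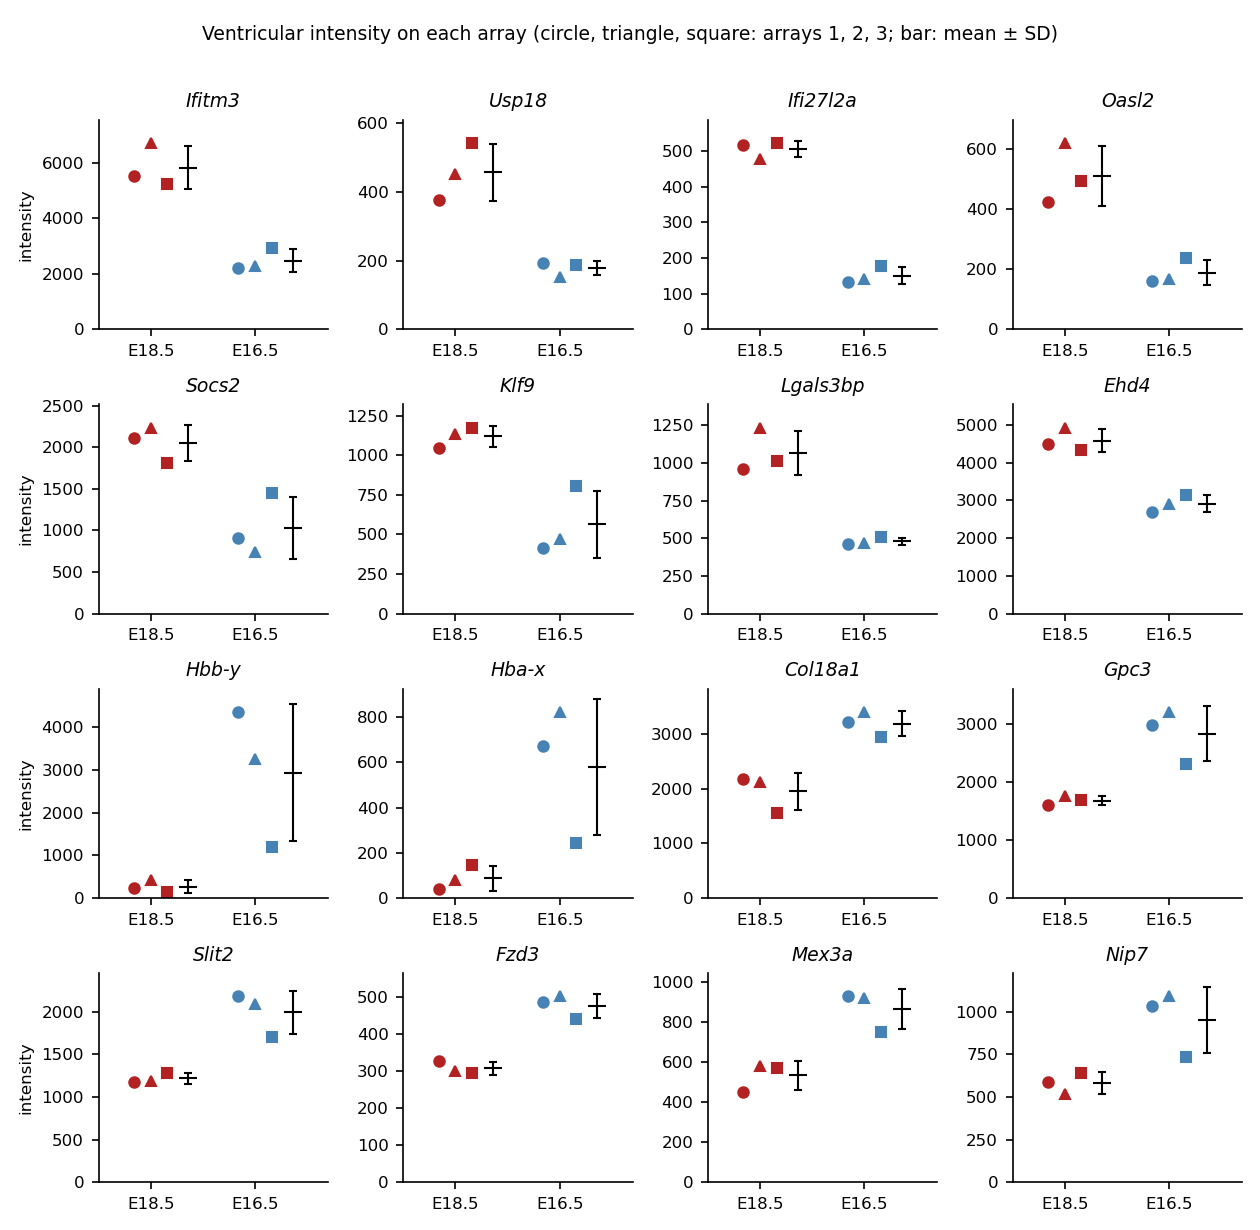
Intensity of 16 called genes on each ventricular array (linear axis from 0), E18.5 left and E16.5 right, with the mean and SD of 3 arrays beside the points. The groups do not overlap in any panel, which the naming rule required of these genes. E16.5 array 3 (square) is the E16.5 array nearest to the E18.5 mean in every panel except that of Usp18.

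Many interferon-stimulated promoters are known to share a sequence element, the interferon-stimulated response element. Its core was searched as GAAANNGAAA, or TTTCNNTTTC where it lies on the other strand, in windows of 250 bases before to 50 after each transcript start (RefSeq, GRCm38.p6). The core occurs in 3.44% of 32851 such promoters and in at least 1 promoter of 3.99% of 27025 genes. Of the 18 genes called higher that had a promoter in the table, Gbp3, Ifitm3 and Mndal held it, and of the 23 called lower, Hbb-y and Nip7. Of 19 genes of the immune and interferon list, 8 held it. The 3 promoters of higher genes are shown because they carry these letters, in the direction of transcription with the matches in capitals. The start site is base 251, and the 3 genes were chosen after their values were seen.
Ifitm3 promoter, chr7:141010695-141010994, minus strand: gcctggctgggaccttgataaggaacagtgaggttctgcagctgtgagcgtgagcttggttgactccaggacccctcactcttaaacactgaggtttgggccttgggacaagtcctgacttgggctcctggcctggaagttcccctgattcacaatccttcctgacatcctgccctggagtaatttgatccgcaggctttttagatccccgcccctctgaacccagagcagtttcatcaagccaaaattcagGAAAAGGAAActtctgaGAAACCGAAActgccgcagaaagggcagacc
Gbp3 promoter, chr3:142559794-142560093, plus strand: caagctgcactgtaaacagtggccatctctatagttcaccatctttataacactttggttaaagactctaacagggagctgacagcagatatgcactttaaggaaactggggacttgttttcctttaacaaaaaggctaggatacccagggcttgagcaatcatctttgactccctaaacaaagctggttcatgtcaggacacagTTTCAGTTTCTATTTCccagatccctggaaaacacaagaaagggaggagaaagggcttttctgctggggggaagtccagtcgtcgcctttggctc
Mndal promoter, chr1:173880138-173880437, minus strand: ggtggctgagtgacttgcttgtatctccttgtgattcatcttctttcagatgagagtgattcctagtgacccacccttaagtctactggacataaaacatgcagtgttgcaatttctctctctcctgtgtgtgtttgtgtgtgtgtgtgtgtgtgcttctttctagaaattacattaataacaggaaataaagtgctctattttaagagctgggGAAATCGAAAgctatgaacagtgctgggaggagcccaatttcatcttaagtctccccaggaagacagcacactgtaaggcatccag
In Ifitm3 the matches begin at bases 253 and 270, just after the start site. In Gbp3 they begin at bases 206 and 212, overlap and lie on the other strand, and in Mndal the match begins at base 215. A match of letters is a description and not a measured binding site.

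Socs2 and Klf9, which are known to respond to hormones, were among the other genes called higher. Socs2, a feedback inhibitor of the growth hormone receptor, read 2110, 2238 and 1809 in E18.5 ventricles, against 910, 737 and 1453 in E16.5 ventricles. E16.5 array 3 stood above the other E16.5 arrays and below all of E18.5, and the difference was 2.04-fold (1.03 ± 0.20, adjusted p = 0.0218), called in 2 of the 6 fits with an array left out. A dimmer probe set of Socs2 was also called (1.26 ± 0.25), and the 4 probe sets lay between 0.00 and 1.26. Klf9, a zinc finger transcription factor induced by glucocorticoid and thyroid hormone, read 1046, 1136 and 1174 at E18.5, against 416, 471 and 807 at E16.5. It was 2.03-fold higher (1.02 ± 0.22, adjusted p = 0.038), and of the 6 fits with an array left out it passed in 1. Of the 5 probe sets of Klf9 only this 1 was called, and the 5 lay between 0.01 and 1.73. Other genes of the glucocorticoid-responsive list were not called, Klf9 being 1 of 26 measured. In 6 of the 26 (23.1%) the E18.5 arrays lay above all E16.5 arrays, beside 8.97% of all genes, and in 1 below. An unadjusted p below 0.05 was found in 4 (15.4%), all positive, beside 4.76% of all genes. Fkbp5, a glucocorticoid receptor co-chaperone, differed by 0.24 ± 0.10 (adjusted p = 0.404), and the list's median was 0.19. Of 12 genes of the thyroid hormone axis, Klf9 was the 1 called on its brightest probe set and Myh6 was called on a dimmer one, and the median was 0.05. In 3 of the 12 (25.0%) the E18.5 arrays lay above all E16.5 arrays, and in 1 below. An unadjusted p below 0.05 was found in 3 (25.0%), all positive.

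Several more genes were called higher. Plcb3, a phospholipase C that acts downstream of G protein-coupled receptors, read 252, 148 and 183 at E18.5, against 56.7, 64.3 and 53.1 at E16.5. The E16.5 arrays lay close together and low, and Plcb3 was 2.77-fold higher (1.47 ± 0.26, adjusted p = 0.01). Ehd4, an ATPase of endocytic membranes, averaged 4582 ± 307 at E18.5 and 2910 ± 220 at E16.5 (0.65 ± 0.13). Fitm2, which serves the formation of lipid droplets, averaged 602.5 ± 12.2 at E18.5 and 386.4 ± 7.4 at E16.5 (0.62 ± 0.13). Chpt1, a cholinephosphotransferase of phosphatidylcholine synthesis (0.53 ± 0.12), Sdr39u1, of the short-chain dehydrogenase family (0.72 ± 0.15), and Hint3, a histidine triad protein gene (0.51 ± 0.11), were higher as well. These 5 genes held in at most 2 of the 6 fits with an array left out.

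Some muscle genes were called on a probe set that was not their brightest. Myh6, the alpha myosin heavy chain of adult mouse ventricle, read 5686, 5571 and 4682 on the dimmer probe set at E18.5, against 2020, 1508 and 2458 at E16.5. The groups lay apart, with a 2.69-fold difference (1.43 ± 0.26, adjusted p = 0.0119). Its brightest probe set averaged 14880 ± 1610 at E18.5 and 10120 ± 1650 at E16.5, a difference of 0.56 ± 0.15 that was not called (adjusted p = 0.109). Quantile normalization gave that probe set an adjusted p of 0.036. The highest intensity of any probe set was between 15361 and 19004 on these 6 arrays, so the brightest Myh6 values lay near the top of the range. Lpl, the lipoprotein lipase that frees fatty acids at the vessel wall, was called on 1 of its probe sets (0.78 ± 0.17), while the brighter differed by 0.44 ± 0.15 (adjusted p = 0.261). Ldb3, a Z-disc protein gene, was called at 0.70 ± 0.15 on 1 of 3 probe sets, which ranged down to -0.11. Ndufs8, of respiratory complex I, was called at 0.62 ± 0.12 on 1 of 6, which ranged down to -0.45. Of the 6 fits with an array left out, the called probe set of Myh6 held in 4, that of Ndufs8 in 2 and those of Lpl and Ldb3 in 1 each. Over the 47 named genes, 29 had several probe sets, and in 17 genes the called probe set was not the brightest.

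The embryonic globins had the largest differences. Hbb-y, the epsilon-type beta globin of primitive red cells, read 229, 432 and 137 in E18.5 ventricles, against 4355, 3251 and 1187 in E16.5 ventricles. Each E18.5 array lay below the lowest E16.5 array, array 3, and the difference was 10.03-fold (-3.33 ± 0.36, adjusted p = 1.03e-05). All 3 probe sets of Hbb-y were called, with differences of -3.21 to -3.87. Hba-x, the zeta-type alpha globin, read 38.0, 78.5 and 145.5 at E18.5, against 673, 823 and 243 at E16.5 (-2.49 ± 0.50, adjusted p = 0.0227). Its groups did not overlap, and Hba-x held in 2 of the 6 fits with an array left out. Hbb-bh1, the remaining embryonic globin, was near the floor on all 6 arrays, at 3.7 to 13.9. Genes of adult-type red cells were not called, although 11 of 12 had a negative difference, with a median of -0.55, and 3 had an unadjusted p below 0.05. Slc4a1, the band 3 anion exchanger, read 123, 153 and 149 at E18.5, against 614, 1265 and 389 at E16.5 (-2.12 ± 0.72, adjusted p = 0.244). Alas2, of heme synthesis, read 892, 921 and 1099 at E18.5, against 3033, 4953 and 1778 at E16.5 (-1.61 ± 0.49, adjusted p = 0.196). In whole ventricles, fewer red cells and less of an RNA in each red cell cannot be told apart.

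Among genes called lower, several act in the matrix or in cell guidance. Col18a1, the basement membrane collagen from which endostatin is cut, read 2184, 2124 and 1558 at E18.5, against 3232, 3412 and 2947 at E16.5. All E18.5 arrays were lower, and the difference was 1.65-fold (-0.72 ± 0.11, adjusted p = 0.00245). Gpc3, a heparan sulphate proteoglycan known to restrain body growth, read 1593, 1753 and 1677 at E18.5, against 2978, 3199 and 2298 at E16.5 (-0.74 ± 0.15, adjusted p = 0.0227). Slit2, a secreted ligand of Robo receptors, read 1177, 1193 and 1289 at E18.5, against 2182, 2091 and 1707 at E16.5 (-0.69 ± 0.15, adjusted p = 0.0392). The E18.5 values of Gpc3 and Slit2 lay close together, below each E16.5 array. Fzd3, a Wnt receptor, was called on 2 of 4 probe sets, with -0.60 ± 0.13 on the brightest. Slitrk5, a transmembrane protein known from neurons, averaged 123.6 ± 4.9 at E18.5 and 303.6 ± 86.2 at E16.5 (-1.15 ± 0.22). Of these genes Col18a1 alone held in all 6 fits with an array left out, Gpc3, Slit2 and Slitrk5 each holding in 1.

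Of 47 measured collagen and matrix genes, Col18a1 was called lower and none higher. Col16a1 (-0.82 ± 0.21, adjusted p = 0.0993), the hyaluronan link protein gene Hapln1 (-1.01 ± 0.53) and its partner Vcan (-0.57 ± 0.20) had negative differences, while the metalloproteinase inhibitor Timp4 (1.57 ± 0.48, adjusted p = 0.196) and the microfibril gene Mfap5 (1.20 ± 0.33, adjusted p = 0.124) had positive ones. The fibrillar collagens Col1a1 (0.10 ± 0.31) and Col3a1 (0.20 ± 0.14) missed the threshold. Of 20 trabecular and compact wall genes, Slit2 was called, and in 8 the E18.5 arrays lay below all E16.5 arrays, beside 10.2% of all genes (1323 of 12983). Among these 8 were Vcan, Hapln1 and Gja5, the connexin 40 of trabecular muscle and conduction fibres (-1.06 ± 0.43, adjusted p = 0.354). Bmp10, a growth factor of trabecular muscle, averaged 517.1 ± 117 at E18.5 and 509.3 ± 79.5 at E16.5, with overlapping groups.

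The remaining genes called lower have varied roles. Mex3a, an RNA-binding protein gene, averaged 534.7 ± 71.8 at E18.5 and 864.5 ± 100 at E16.5 (-0.68 ± 0.13, adjusted p = 0.0218). Nip7, of ribosome assembly, averaged 582.6 ± 63.2 at E18.5 and 952.3 ± 192 at E16.5 (-0.68 ± 0.14). The other probe set of Mex3a differed by -0.25 and that of Nip7 by 0.01, neither called. Mex3a held in 3 and Nip7 in 2 of the 6 fits with an array left out. Taf1a, a subunit of the selectivity factor of RNA polymerase I, differed by -0.60 ± 0.12. The ribosomal protein gene Rpl22 (-0.39 ± 0.09) and the small nucleolar RNA host gene Snhg1 (-0.56 ± 0.10) were called on probe sets that were not their brightest. The kinase gene Rps6ka6 (-1.23 ± 0.24), the fucosyltransferase gene Fut10 (-1.46 ± 0.25), the receptor sorting gene Gprasp2 (-0.92 ± 0.20) and the mitochondrial protein gene Nipsnap1 (-0.61 ± 0.13) were lower too. A second probe set, not called, differed by -0.54 for Rps6ka6 and by -0.18 for Fut10. Phgdh, which opens serine synthesis, was called on 1 of 4 probe sets (-1.09 ± 0.18, adjusted p = 0.00465), and its others lay between there and -0.40. Cnn3, a calponin, was called on 1 of 6 probe sets (-0.80 ± 0.18). That probe set read 1473, 2991 and 3716 at E18.5, so array 1 lay far below the other E18.5 arrays, against at least 4363 on each E16.5 array. With an array left out, Cnn3, Taf1a, Gprasp2 and Nipsnap1 each held in 1 of the 6 fits and Rpl22 in 0. Snhg1 and Rps6ka6 held in 3, and Fut10 in 4. Of 25 cytosolic ribosome genes, Rpl22 among them, and 23 genes of translation and ribosome biogenesis, none was called on its brightest probe set, with medians of 0.03 and -0.05, and 2 and 0 had an unadjusted p below 0.05.

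Genes of energy metabolism had small positive differences. Among 43 genes of the TCA cycle and the respiratory chain none was called, and 7 had an unadjusted p below 0.05. All 43 had a positive difference, beside 46.3% of all genes, with a median of 0.18 that was 0.08 after quantile normalization and 0.29 after median centring. In 8 of the 43 (18.6%) the E18.5 arrays lay above all E16.5 arrays, beside 8.97% of all genes, and the 7 with an unadjusted p below 0.05 are 16.3% of the list, beside 4.76%. The mean level of the list did overlap between the days, at 0.49, 0.57 and 0.33 on the E18.5 arrays, against 0.17, 0.25 and 0.40 on the E16.5 arrays. In atria 26 of the 43 were positive, with a median of 0.03. The fatty acid oxidation list (28 of 33 positive, median 0.18), the ketone and branched-chain list (14 of 14, median 0.24) and mitochondrial ribosomal proteins (29 of 33, median 0.16) were alike, none called on its brightest probe set and Lpl on a dimmer one. At an unadjusted p below 0.05 were 4 (12.1%), 5 (35.7%) and 9 (27.3%) of their members, all positive. Ckmt2, the mitochondrial creatine kinase of muscle, read 7494, 8386 and 7131 at E18.5, against 2157, 2868 and 4944 at E16.5 (1.29 ± 0.39, adjusted p = 0.187). Its groups lay apart, and the E16.5 arrays were spread widely. Slc2a4, the insulin-dependent glucose transporter, differed by 0.56 ± 0.19, and Slc2a3, a transporter of fetal tissue, by -0.77 ± 0.23 (adjusted p = 0.172). The regulators Ppara (0.43 ± 0.34), Esrra (0.31 ± 0.26) and Ppargc1a (-0.30 ± 0.13), and Pdk4, which shuts off glucose oxidation (-0.30 ± 0.21), missed the threshold.

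**Figure D3:**
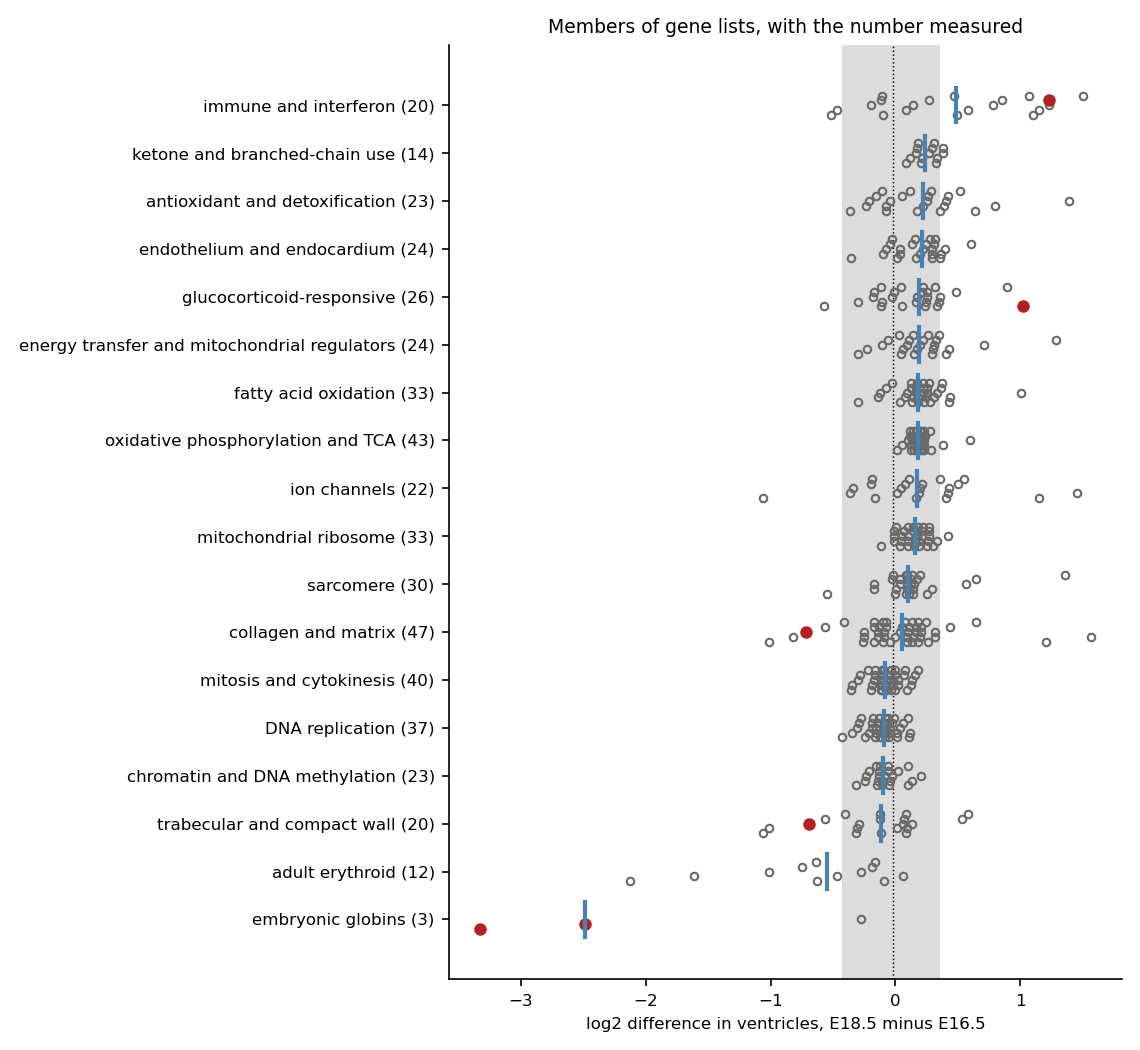
Log2 difference of the measured members of 18 gene lists in ventricles, E18.5 minus E16.5, each taken by its brightest probe set, with called genes filled, others open and the list's median as a bar. The grey band runs over all genes tested, between the 5th and 95th percentile at -0.42 and 0.35, and the immune and interferon list has the highest of the medians shown, 0.48.

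Few contractile genes and no cell cycle genes were called. None of 30 sarcomere genes was called on its brightest probe set, Myh6 and Ldb3 were on a dimmer one, and 2 had an unadjusted p below 0.05. Myh7, the slow heavy chain, averaged 16790 ± 2140 at E18.5 and 15680 ± 1350 at E16.5 (0.09 ± 0.57), and Myl2 differed by 0.14 ± 0.77. Both lay near the top of the range, which limits what they can show. The fetal and adult troponin I genes Tnni1 (0.11 ± 0.17) and Tnni3 (0.17 ± 0.15) overlapped between the days, as did the fetal skeletal actin Acta1, at 2857 ± 296 in E18.5 ventricles and 2860 ± 412 in E16.5 ventricles. Kcnip2, the subunit of the transient outward potassium current, read 1991, 2143 and 1850 at E18.5, against 435, 796 and 1054 at E16.5 (1.45 ± 0.58, adjusted p = 0.345). Nppb, a natriuretic peptide of the stretched wall, differed by 0.58 ± 0.26, and Nppa by 0.08 ± 0.19. Of 37 DNA replication and 40 mitosis genes none was called, with 3 of each at an unadjusted p below 0.05. Their medians were -0.09 and -0.09, which became 0.02 and 0.03 after median centring. Mki67 (-0.10 ± 0.21) and Top2a (-0.17 ± 0.13) missed the threshold, as did the cell cycle inhibitor Cdkn1c (-0.66 ± 0.18, adjusted p = 0.136). Igfbp2, a binding protein of insulin-like growth factors, had a larger difference (-1.30 ± 0.30, adjusted p = 0.0635), while Igf2 differed by -0.01 ± 0.15. Of the 51 lists, 7 held at least 1 gene called on its brightest probe set, and 12 at least 1 called on any.

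The atria of the same days tell whether a difference was seen in both chambers. In atria 86 probe sets were called (0.316%), 43 higher and 43 lower (15 and 24 after median centring), and 0 when the 6 atrial arrays were fitted alone in limma, with 2552 at an unadjusted p below 0.05. Of the 59 ventricular calls 57 had the same sign in atria, and 15 were called there too. These included Ifi27l2a (1.36 ± 0.31), Oasl2 (1.42 ± 0.28), Usp18 (1.50 ± 0.20), Ifitm3 (1.06 ± 0.16), Gbp3 (1.55 ± 0.24), Socs2 (adjusted p = 0.0181), Hbb-y (-3.19 ± 0.36), Hba-x (-3.80 ± 0.50) and Gpc3 (-0.83 ± 0.15). Usp18 read 412, 418 and 475 in E18.5 atria, against 157, 136 and 136 in E16.5 atria, again with no overlap. In the immune and interferon list 4 of 20 genes were called in atria, namely Ifitm3, Ifit1, Ifit3 and Bst2, with a median of 0.45. Single atrial arrays held other tissue, since ventricular genes were high on the first E18.5 array and the second E16.5 array, and lung genes on array 3 of both days.

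The test of the difference between the chambers called 0 of 27256 probe sets (0%), with 1595 at an unadjusted p below 0.05 and a lowest adjusted p of 0.443. The ventricular difference was larger in size than the atrial one in 52 of the 59, among genes chosen for their ventricular difference. Plcb3 had the smallest unadjusted p of the named genes in that test (2.7e-05), with 1.47 in ventricles and -0.37 ± 0.26 in atria. Dimmer Myh6 (0.10 ± 0.26 in atria) and Fitm2 (0.09 ± 0.13 in atria) were further genes with little atrial difference, and no gene is shown to differ between the chambers.

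**Figure D4:**
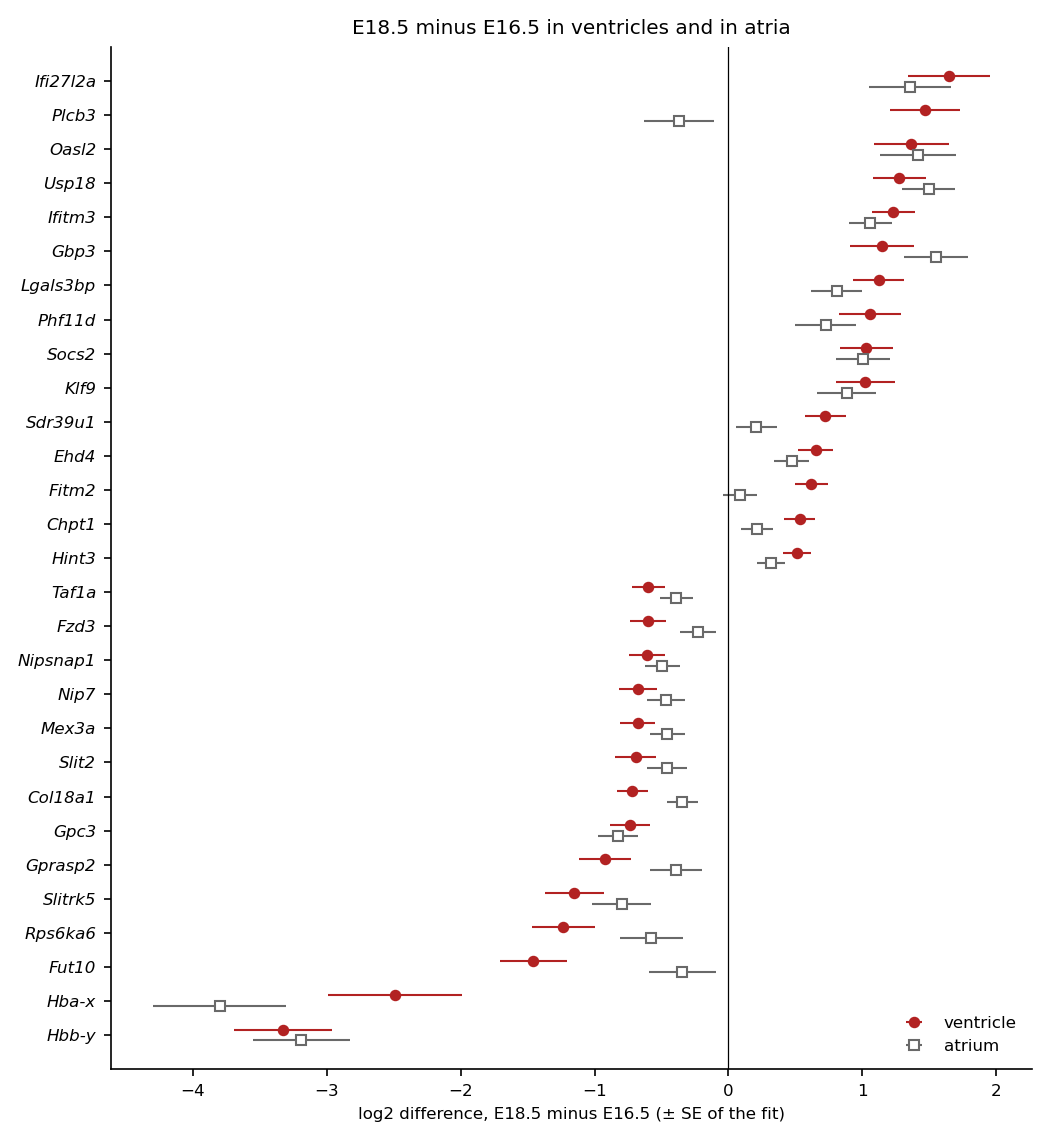
Log2 difference between E18.5 and E16.5 in ventricles (filled) and atria (open) with the SE of the fit, for 29 genes. They are the 15 largest higher and all 14 lower genes whose brightest probe set was called in ventricles, with groups that did not overlap. Fez2, also called higher (0.47 ± 0.10 in ventricles, 0.02 ± 0.10 in atria), is not shown. Plcb3 alone has opposite signs, 1.47 and -0.37.

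The earlier ages show when these levels were reached. Over the 5 ages with separate chambers, from E12.5 to E18.5, Ifitm3 averaged 1322, 1639, 1775, 2472 and 5814 in ventricles. Usp18 averaged 153.2, 115.9, 159.7, 177.8 and 457.3 at those ages, with an E18.5 mean above each of the 4 earlier ones. Klf9 averaged 295.7, 373.5, 370.6, 564.7 and 1118, and Socs2 787.8, 725.1, 778.5, 1033 and 2053. Hbb-y averaged 15710, 12370, 13030, 2931 and 266.0, and Hba-x 12760, 8104, 6676, 579.9 and 87.33. Slit2 averaged 4227, 3471, 3174, 1993 and 1219, and Col18a1 4846, 4019, 3916, 3197 and 1956. Gpc3 was highest at E13.5, with 3593, 4616, 4102, 2825 and 1674.

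The interval before, E16.5 against E13.5, shares the E16.5 arrays and so is set beside the later one as values. It had 812 called probe sets, 346 higher and 466 lower, while median centring gave 113 higher and 1053 lower. The median difference of all tested probe sets was -0.13 after that centring and 0.02 before it. By genes 159 were higher (1.22%) and 272 lower (2.1%). E16.5 array 3 mattered there too, since the count was 21 without it, and 17 without the second E13.5 array. Differences at E16.5 against E13.5 were 0.59 for Ifitm3, 0.55 for Usp18, 0.53 for Klf9 and 0.45 for Socs2, of which Ifitm3 was called (adjusted p = 0.0422). On its brightest probe set Hbb-y differed by -2.26 and on the dimmest by -3.14. The brightest read 10965, 13618 and 12522 at E13.5, near the top of the range, since the highest of any probe set was 14965 to 16775 on those arrays, which limits what it can show. The differences were -3.73 for Hba-x, -0.71 for Gpc3 and -0.78 for Slit2, all called like those of Hbb-y, and -0.33 for Col18a1, not called. Of 37 DNA replication genes 8 were called lower in the earlier interval, with a median of -0.32. Ppara (1.30), Ckmt2 (1.95) and Ryr2, the calcium release channel (0.50), were called higher and Hmga2, a fetal chromatin protein, lower (-1.53) in the earlier interval. In the later one their differences were 0.43, 1.29, 0.35 and -0.76, none called. Plcb3 went opposite ways, with -1.61 at E16.5 against E13.5 (adjusted p = 0.00186) and 1.47 at E18.5 against E16.5. Both of these differences rest on the same low E16.5 arrays.

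**Figure D5:**
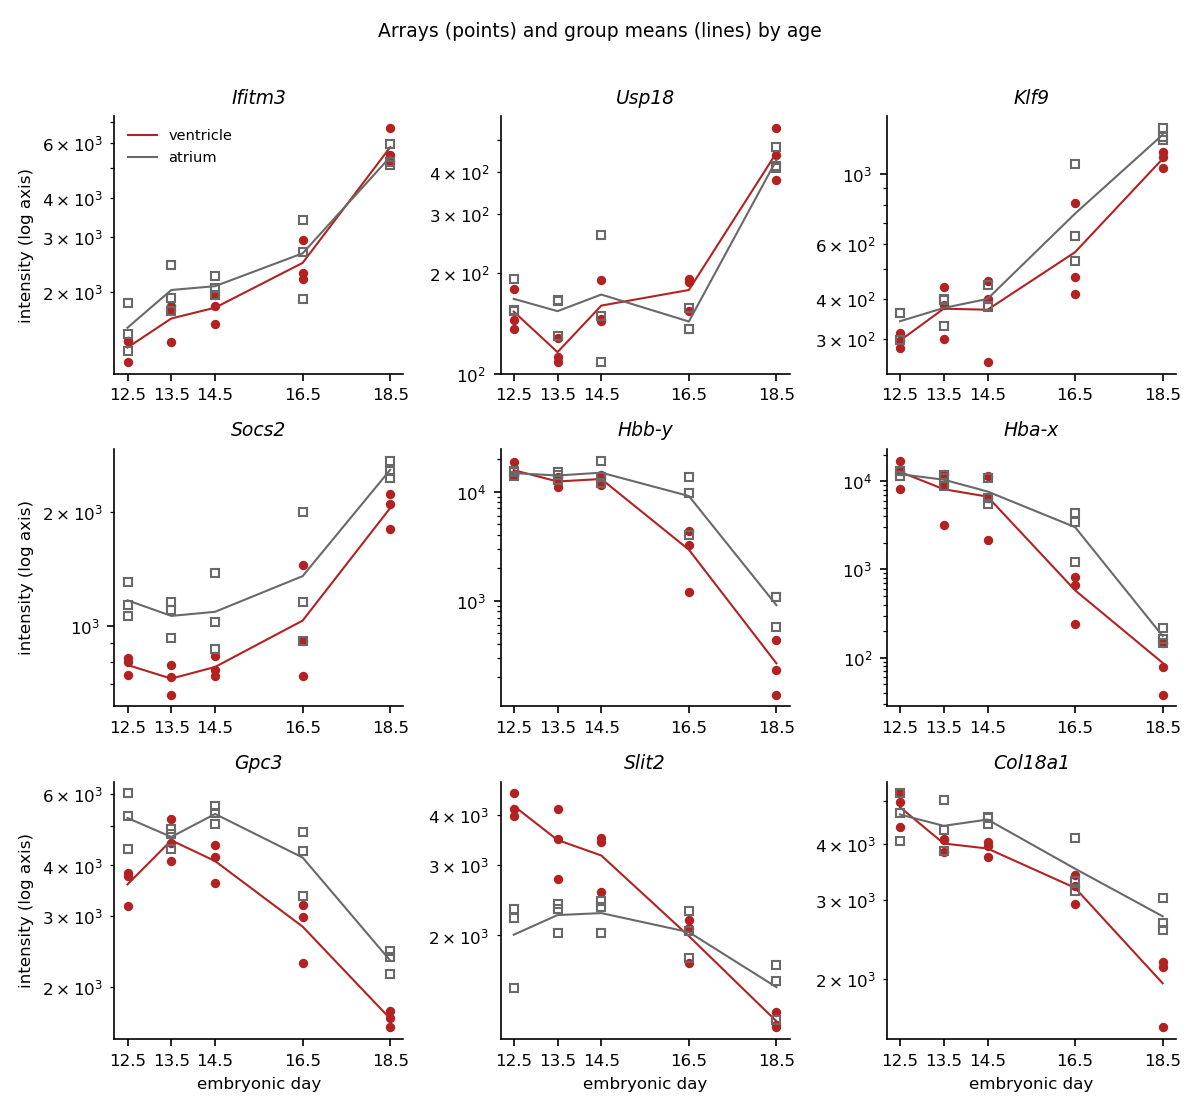
Intensity (log axis) of 9 called genes by embryonic day in ventricles (filled) and atria (open), with 3 arrays per point group and lines through the means. Ifitm3, Usp18, Klf9 and Socs2 are highest at E18.5 in both chambers, and Hbb-y and Hba-x lowest.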

How the data were processed

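Affymetrix mouse arrays measured total RNA in 36 samples, of which 6 are compared here. The authors deposited intensities on a linear scale for 45101 probe sets. Their scaling was not described in the sources used here, but the 2% trimmed mean was 500 on each of the 36 arrays. Control probe sets were left out, a pseudocount of 17 was added and log2 was taken. A probe set was tested if it exceeded 171.8, the median over the whole table, on 3 or more arrays. This left 27256 probe sets for 12983 genes. Gene symbols came from the platform annotation, updated through RefSeq, and 34945 probe sets had 1 symbol.

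In R 4.3.3, limma 3.58.1 estimated 12 group means from 36 arrays (24 residual degrees of freedom, intensity trend). The fit was also run on simulated data with independent noise for each probe set, which cannot show the effect of single arrays. P-values were two-sided, with Benjamini-Hochberg adjustment across the 27256 probe sets in each comparison. A difference is on the log2(intensity + 17) scale, which understates the change of dim genes. With 3 arrays a group, their number limits the precision.

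Named genes were up to 15 of the largest differences each way among called genes with groups that did not overlap, of which 14 were lower. Called members and exceptions of the 51 lists and a fixed set of heart genes were named too. Other named genes were chosen after their values were seen. The members and lists were chosen with earlier results of these data known. Deviations of same-numbered E18.5 and E16.5 ventricular arrays from their group means correlated at 0.11, 0.19 and -0.03, and the labels tie no numbers, so samples were not paired. The alternatives changed the normalization (quantile, median centring), the pseudocount (1, 68), the filter (none, strict), the arrays fitted, the trend, the weights, the block by replicate number, and how a gene's probe sets were summarised. Each compared array was also left out in turn.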

Additional observations from a re-analysis of the deposited data

How the results depend on the processing

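The 59 ventricular calls became 37 after median centring and 399 with array weights, and between 11 and 98 with an array left out. Quantile normalization, both other pseudocounts, both other filters, no trend and only the compared arrays gave 44 to 67, of which the last shared 23 with the 59. With the replicate number as a block the count was 58, of which 55 were among the 59. Median centring raised the median difference of all tested probe sets by 0.11. The 86 atrial calls became 39 after median centring, 0 with only the compared arrays, 172 with array weights, and between 19 and 419 with an array left out. The chamber difference had 0 calls in each setting except array weights, with 1, and 0 with any array left out. The 812 calls of E16.5 against E13.5 became 506 without a filter, 3951 with array weights, and between 17 and 1185 with an array left out. Of the 59, 6 probe sets were called in every setting run, those of Hbb-y, Ifitm3, Usp18 and 1 annotated to several genes. No gene named in the report changed sign of a called difference. Fits that leave out an array also have fewer samples, and the cause of these shifts was not tested.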

Other observations

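Genes of antioxidant defence and detoxification were not called in ventricles by limma, with 7 of 23 at an unadjusted p below 0.05, all positive, but in 8 of 23 the E18.5 arrays lay above all E16.5 arrays and in none below, beside 8.97% of all genes above and 4.76% with a positive difference at that p. Gstm2, a glutathione transferase, read 2226, 2244 and 2257 in E18.5 ventricles, against 1275, 1538 and 1931 in E16.5 ventricles (0.52 ± 0.13, adjusted p = 0.0946). Cyp1b1, a cytochrome P450 of steroid and retinoid metabolism, differed by 1.39 ± 0.53, and the quinone reductase Nqo1 by 0.63 ± 0.25.

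Ankrd23, a stretch-responsive ankyrin repeat protein of muscle, read 456, 429 and 400 at E18.5, against 90.0, 173 and 263 at E16.5 (1.32 ± 0.34, adjusted p = 0.0993). Of the 59 called probe sets, 7 had no gene symbol in the annotation used here, and the largest of their differences was -2.01 in ventricles and -2.28 in atria, both called.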
